A study of Mus musculus with 36 samples.

Results

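Interferon-stimulated genes were followed in lungs of A/J and C3H mice that were left untreated or were given NNK. Their 35 members were listed by symbol: transcription factors, RNA and nucleic acid sensors, antiviral enzymes, ubiquitin-like and ADP-ribosylation regulators, guanylate-binding proteins and chemokines that cells make after interferon. By the platform's annotation 32 of the 35 lay on a probe set that carries 1 gene symbol, and 31 of these were among the 14953 genes tested, out of 19938 measured genes. Isg15 and Gbp2 lay on probe sets of several symbols and Ifi44 was not named in the probe table, so these 3 were not analysed here. Mx1, a dynamin-like antiviral GTPase, lay under the filter on dim genes at the 20.2nd percentile of mean level and was measured but not tested.

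Total lung RNA was hybridised to Affymetrix Mouse Gene 1.0 ST arrays, 36 in all, 2 for each of 18 groups. Untreated A/J and untreated C3H lungs were collected at 0, 3, 6, 9 and 12 weeks. NNK, a tobacco-specific nitrosamine that is activated in the lung to DNA-alkylating products, was injected in 4 weekly doses of 100 mg/kg, and treated A/J and C3H lungs were collected at 3, 6, 9 and 12 weeks after exposure, before mature tumours. The labels give neither age nor sex, and nothing in them says that both arrays of a group stand for different mice. The p-values therefore rest on the scatter between paired arrays, part of which may be technical. A/J is a strain prone to chemically induced lung tumours, and C3H is less so. The comparisons asked how the members differed between the strains, how NNK changed them in each, and at which weeks.

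Interferons bind receptors on the cell surface and, through JAK kinases, activate transcription factor complexes that hold STAT2 and IRF9 and bind interferon-stimulated response elements (ISRE) in the promoters of these genes. Interferon gamma acts mainly on a different element, GAS, and is the main inducer of Cxcl9 and of guanylate-binding proteins. The products detect viral nucleic acid, degrade or block viral RNA, feed back on the receptor, or draw T cells into the tissue. In the lung these genes are made by epithelium, macrophages and other cells alike, and they have a resting level without infection.

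The upstream sequences of members that represent the antiviral enzymes (Oas3, Rsad2), the IFIT proteins (Ifit1, Ifit3), the guanylate-binding proteins (Gbp3) and the chemokines (Cxcl10) are shown because each holds the core of the ISRE, the element that the interferon-activated complex binds. Each is the 250 bases before the annotated start in RefSeq on the C57BL/6J reference (GRCm38.p6), 5′ to 3′ on the gene's strand, from chr5:120777660-120777909 (minus strand), chr12:26456453-26456702 (minus), chr19:34640639-34640888 (plus), chr19:34583279-34583528 (plus), chr3:142559794-142560043 (plus, the first of its annotated starts) and chr5:92348890-92349139 (minus). Capitals mark matches to the ISRE core, which is GAAA, any 2 bases and GAAA again, or TTTC, any 2 bases and TTTC on the other strand, and overlapping matches run together.
Oas3: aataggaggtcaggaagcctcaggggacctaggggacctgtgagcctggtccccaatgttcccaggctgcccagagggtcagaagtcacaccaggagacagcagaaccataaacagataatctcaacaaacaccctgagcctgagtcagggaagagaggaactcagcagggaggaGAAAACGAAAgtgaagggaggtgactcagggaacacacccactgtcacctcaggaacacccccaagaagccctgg
Rsad2: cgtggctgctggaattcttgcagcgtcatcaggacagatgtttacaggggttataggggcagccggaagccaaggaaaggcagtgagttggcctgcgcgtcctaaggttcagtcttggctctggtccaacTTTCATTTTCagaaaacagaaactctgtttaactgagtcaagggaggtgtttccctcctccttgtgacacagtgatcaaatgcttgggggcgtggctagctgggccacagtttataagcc
Ifit1: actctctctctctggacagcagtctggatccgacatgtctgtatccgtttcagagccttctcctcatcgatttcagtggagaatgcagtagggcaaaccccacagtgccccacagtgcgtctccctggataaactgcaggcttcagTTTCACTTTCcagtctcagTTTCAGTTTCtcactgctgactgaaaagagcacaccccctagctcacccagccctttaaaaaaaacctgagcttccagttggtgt
Ifit3: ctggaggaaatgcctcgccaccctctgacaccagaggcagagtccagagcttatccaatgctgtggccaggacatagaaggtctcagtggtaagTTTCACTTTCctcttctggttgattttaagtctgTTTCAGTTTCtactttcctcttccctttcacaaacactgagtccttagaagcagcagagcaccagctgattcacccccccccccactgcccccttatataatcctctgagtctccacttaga
Gbp3: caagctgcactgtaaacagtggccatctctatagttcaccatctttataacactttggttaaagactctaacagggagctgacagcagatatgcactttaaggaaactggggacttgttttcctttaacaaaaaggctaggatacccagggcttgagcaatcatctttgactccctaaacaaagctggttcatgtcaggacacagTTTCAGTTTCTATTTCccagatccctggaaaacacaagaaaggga
Cxcl10: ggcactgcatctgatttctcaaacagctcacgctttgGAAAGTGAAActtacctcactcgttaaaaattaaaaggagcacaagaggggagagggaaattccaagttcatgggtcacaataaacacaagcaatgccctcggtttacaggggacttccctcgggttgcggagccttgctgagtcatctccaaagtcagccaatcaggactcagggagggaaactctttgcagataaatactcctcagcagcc

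Promoter windows of 300 bases, 250 before and 50 after the start, were found for 27 of the 35 members. Rtp4, Oas2, Parp9, Zbp1, Mx1, Dhx58, Parp14 and Usp18 were not matched. The ISRE core was in the windows of 13 of the 27 (48.1%), against 3.99% of all 27025 genes in the same table. These 13 were Bst2, Cxcl10, Ddx58, Eif2ak2, Gbp2, Gbp3, Ifih1, Ifit1, Ifit3, Isg15, Oas3, Rsad2 and Stat2. In Ifit1 the matches began 104 and 85 bases before the start, in Ifit3 156 and 122, in Gbp3 45 and 39, in Oas3 75, in Rsad2 120 and in Cxcl10 213. The GAS core, TTC, any 3 bases and GAA, which reads the same on both strands, was in 4 of the 27 windows (14.8%), against 9.55% of all genes. The core of the NF-kappaB site, GGGAA, any base and TTCC on either strand, was in Cxcl10 and Gbp2, 2 of the 27, against 0.4% of all genes. Among tested members with a window, 1 of the 11 with an ISRE core and 5 of the 13 without it rose with NNK in A/J, each with a median change of 0.13. Over all tested genes 7.44% rose. Oas2, Zbp1, Usp18 and Rtp4 also rose but had no matched window, so this split leaves them out and does not compare all members that rose. These matches describe the reference letters in a short window and were not read as binding sites.

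Several arrays stood apart before any comparison was made. Array 1 of NNK-treated A/J lungs at week 6 had an Rsad2 level of 10.65 against 8.96 on array 2, and it had the highest summed intensity of neutrophil markers (8208, where the 8 NNK-treated A/J arrays had a median of 2968) and of proliferation markers (5400, median 2297). Array 1 of NNK-treated A/J lungs at week 12 had the highest Stat2, Zbp1 and Gbp3 of its group. Both untreated A/J arrays of week 6 carried skin genes, with Lor levels of 12.74 and 13.59 and Krt1 levels of 14.37 and 14.77. Array 2 of untreated A/J at week 0 had a Lor level of 13.65 and a Krt5 level of 10.22, the highest of the 36 arrays for both, but a Krt1 level of 9.27. The other 33 arrays had 6.82 to 7.40 for Lor and 8.62 to 9.72 for Krt1. Saa3, an acute-phase gene, reached 13.33 and 11.76 in C3H lungs 3 weeks after NNK, 12.32 on array 2 of untreated A/J at week 3, and 10.42 and 11.76 in A/J lungs 6 weeks after NNK. The array medians of the deposited intensities lay between 285 and 347, and arrays give no read depth. All levels below are quantile-normalized log2(intensity + 16) values, and each gene is compared with itself between arrays, not with other genes.

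Most members were lower in untreated A/J lungs than in untreated C3H lungs. Over the 5 weeks, 21 of the 31 were lower and 5 were higher in A/J (limma, adjusted p under 0.05, 10 arrays in each strain), where 36.3% of all tested genes were lower and 19.8% higher, 56.1% in all. The members' median difference was -0.18 against -0.04 over all genes. In 11 members all 10 A/J arrays lay below all 10 C3H arrays, a pattern that 7.78% of all genes showed, and in 1, Bst2, all lay above, as in 2.55% of all genes. In whole-lung RNA fewer cells of a type and less RNA per cell cannot be told apart. Each tested member was read from 1 probe set, so no second set could be compared. Whether the probes match the sequence of both strains equally was not tested.

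The largest difference was in Oas2, a 2′-5′-oligoadenylate synthetase whose product activates RNase L against viral RNA. Its level had a lowest value of 8.45, a median of 8.51 and a highest of 8.65 on untreated A/J arrays, and 9.52, 10.02 and 10.41 on untreated C3H arrays. The strains did not overlap, and the difference was -1.44 ± 0.06 (SE; adjusted p = 1.18e-14), a 2.72-fold lower level in A/J. Its neighbour in the genome, Oas3, differed by -0.39 ± 0.05 and overlapped slightly (7.24, 7.54 and 7.79 in A/J, 7.77, 7.91 and 8.11 in C3H). Oasl2, an OAS-like protein with ubiquitin-like repeats, ranged from 10.79 over 10.96 to 11.12 in A/J and from 11.28 over 11.43 to 11.73 in C3H. It did not overlap either and differed by -0.49 ± 0.05, while the adjacent Oasl1, which holds back Irf7 translation, differed by -0.18 ± 0.05.

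Among the transcription factors, Irf7, which drives the second wave of type I interferon, had levels of 8.25, 8.71 and 8.94 (lowest, median, highest) in A/J and 8.97, 9.23 and 9.68 in C3H. The ranges met but did not overlap, with a difference of -0.58 ± 0.08 (adjusted p = 2.58e-06). Irf9, the DNA-binding part of the ISRE complex, ran from 9.92 to 10.32 in A/J and from 10.42 to 10.63 in C3H, a difference of -0.41 ± 0.04. Its partner Stat2 did not pass the test (-0.05 ± 0.06, adjusted p = 0.48). Of the RNA sensors, Ifih1 (MDA5) ranged from 9.80 to 10.02 in A/J and from 10.22 to 10.46 in C3H without overlap, a difference of -0.40 ± 0.03. Ddx58 (RIG-I) and Dhx58 (LGP2) were lower in A/J by smaller amounts, -0.11 ± 0.03 and -0.18 ± 0.05, with overlapping arrays. The Z-nucleic acid sensor Zbp1 did not pass (-0.15 ± 0.07, adjusted p = 0.0569).

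The IFIT proteins, of which Ifit1 binds viral RNA with foreign caps, did not move together. Ifit3 was lower in A/J (10.50, 10.93 and 11.22 against 11.57, 11.62 and 11.90 in C3H), by -0.79 ± 0.05 (adjusted p = 2.86e-11). Ifit1 was lower too (9.40, 9.71 and 9.93 against 10.15, 10.36 and 10.65), by -0.63 ± 0.07. Ifit2, the immediate neighbour of Ifit3, was higher in A/J by 0.14 ± 0.04 (adjusted p = 0.00146), with overlapping arrays. Eif2ak2 (PKR), the kinase that stops translation on double-stranded RNA, ran from 8.59 to 9.03 in A/J and from 9.10 to 9.37 in C3H, a difference of -0.35 ± 0.04.

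Regulators and secreted products differed as well. Usp18, the protease that removes ISG15 and damps the type I receptor, had levels of 10.12, 10.27 and 10.45 in A/J and 10.52, 10.69 and 10.88 in C3H, a difference of -0.44 ± 0.05 (adjusted p = 2.13e-08). Lgals3bp, a secreted glycoprotein that binds galectins, had 11.25, 11.39 and 11.80 in A/J and 12.00, 12.18 and 12.34 in C3H. It did not overlap and differed by -0.71 ± 0.05 (adjusted p = 2.03e-11). Rtp4, a Golgi chaperone of receptors, ran from 9.59 to 10.07 in A/J and from 10.11 to 10.77 in C3H, a difference of -0.51 ± 0.06.

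A smaller set ran the other way or was even. Bst2 (tetherin), which holds budding virus at the membrane, was higher on every A/J array, with 9.54, 9.74 and 9.83 against 9.27, 9.37 and 9.47 in C3H. Its difference was 0.34 ± 0.04 (adjusted p = 8.95e-08). Parp9 and Parp14, ADP-ribosyltransferases, were higher in A/J by 0.13 ± 0.03 each, whereas Dtx3l, their ubiquitin ligase partner and direct neighbour in the genome, was lower by -0.20 ± 0.04. Gbp3 was higher in A/J by 0.22 ± 0.09. Neither chemokine passed, with Cxcl9 at 0.17 ± 0.11 and Cxcl10 at -0.01 ± 0.11, and nor did Xaf1 at -0.07 ± 0.05. The remaining lower members were Rsad2 (-0.45 ± 0.14), Cmpk2 (-0.22 ± 0.05), Herc6 (-0.16 ± 0.05), Ifi35 (-0.14 ± 0.04) and Samd9l (-0.11 ± 0.04). Mx1, not tested, ran from 7.08 to 7.60 in A/J and from 7.08 to 7.36 in C3H. With each array left out in turn, 24 to 27 members passed.

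In A/J lungs 10 of the 31 members rose with NNK and 0 fell (limma, weeks 3 to 12, 8 arrays in each treatment). The 10 were Oas2, Irf7, Cxcl9, Zbp1, Lgals3bp, Rtp4, Usp18, Oasl2, Cmpk2 and Oas3. Of all tested genes 7.44% rose and 2.6% fell, 10% in all. All 31 members had a change above 0 before rounding (lowest 0.00, median 0.13, highest 0.51), where 56.7% of all genes did and their median was 0.01. No member had all 8 NNK arrays above all 8 untreated arrays of weeks 3 to 12, as 0.415% of all genes had.

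Oas2 rose most. Its NNK arrays read 8.54 and 8.46 at week 3, 9.22 and 8.74 at week 6, 9.19 and 9.29 at week 9, and 9.59 and 9.31 at week 12. Untreated A/J arrays of weeks 3 to 12 lay between 8.45 and 8.65. The week 3 arrays were within the untreated range and the 6 later arrays above it, all still below the lowest C3H array of weeks 3 to 12 (9.76). Averaged over the 4 weeks the change was 0.51 ± 0.07 (adjusted p = 5.09e-05), a 1.42-fold rise. Oas3 rose by 0.19 ± 0.06 (adjusted p = 0.0479, NNK 7.36, 7.84 and 7.98, untreated 7.31, 7.63 and 7.79), and Oasl2 by 0.21 ± 0.06 (NNK 10.77, 11.15 and 11.51, untreated 10.79, 10.93 and 11.08). Both overlapped their controls.

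Irf7 read 8.94 and 8.81 at week 3, 9.32 and 9.11 at week 6, 9.24 and 9.08 at week 9, and 9.26 and 9.11 at week 12 with NNK. Without NNK it lay between 8.25 and 8.94, so all 6 arrays from week 6 on were above every untreated one. The change was 0.46 ± 0.09 (adjusted p = 0.00284). Stat2 and Irf9 did not pass (0.13 ± 0.06 and 0.04 ± 0.05). Zbp1 rose by 0.38 ± 0.08 (adjusted p = 0.00251). It read 8.73 and 8.80, 8.91 and 8.76, 9.11 and 9.03, and 9.68 and 8.96 at weeks 3, 6, 9 and 12, against 8.44 to 8.82 untreated, and array 1 of week 12 was the highest by far. The RNA helicase sensors did not pass, with Ifih1 at 0.00 ± 0.04, Ddx58 at 0.05 ± 0.03 and Dhx58 at 0.12 ± 0.06.

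Usp18 rose by 0.25 ± 0.05 (adjusted p = 0.00271), from untreated levels of 10.12, 10.28 and 10.45 to 10.36, 10.55 and 10.63. Lgals3bp rose by 0.31 ± 0.05 (adjusted p = 0.00068), from 11.25, 11.35 and 11.60 to 11.56, 11.70 and 11.83. In Usp18 the 2 highest untreated arrays reached into the NNK range, and in Lgals3bp the highest 1 did. Rtp4 rose by 0.27 ± 0.07 (adjusted p = 0.0161, NNK 9.76, 10.09 and 10.39, untreated 9.59, 9.81 and 9.95). Cmpk2, a mitochondrial nucleotide kinase next to Rsad2 in the genome, rose by 0.20 ± 0.06 (adjusted p = 0.0296, NNK 9.08, 9.26 and 9.51, untreated 8.99, 9.08 and 9.21). Rsad2 (viperin), which makes a chain-terminating nucleotide, did not pass over the 4 weeks (0.16 ± 0.16, adjusted p = 0.545).

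Cxcl9, a chemokine that draws CXCR3-bearing T cells, rose by 0.42 ± 0.13 (adjusted p = 0.0406). Its NNK arrays read 7.97 and 8.65, 8.18 and 7.95, 9.63 and 9.11, and 9.54 and 9.73 at weeks 3, 6, 9 and 12. The untreated arrays read 8.87 and 8.02, 8.02 and 8.01, 9.28 and 8.95, and 7.93 and 8.35 at the same weeks. High levels at week 9 were thus present with and without NNK, and the treatments parted at week 12. Cxcl10, which lies 2 coding genes away and signals through the same receptor, did not pass (0.22 ± 0.13, adjusted p = 0.267). The smallest changes besides Ifih1 were those of Ifit2, Parp9 and Parp14, at 0.02 ± 0.04, 0.03 ± 0.03 and 0.03 ± 0.04, none past the threshold. Mx1, untested, read 7.28, 7.59 and 7.79 with NNK and 7.08, 7.27 and 7.60 without.

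**Figure D1:**
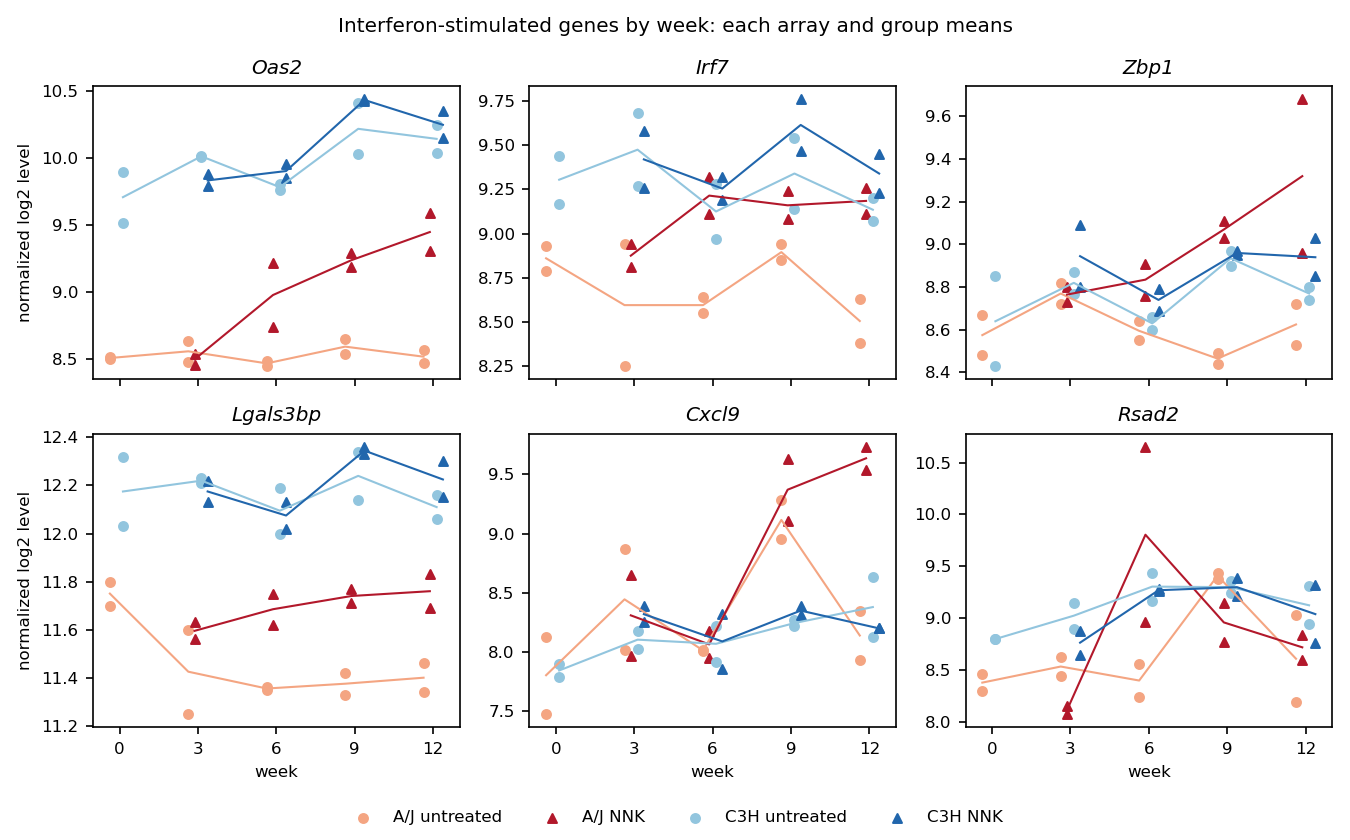
Normalized log2 level (vertical axis) of 6 members at each week (horizontal axis, weeks 0 to 12). Points are single arrays, circles untreated and triangles NNK-treated, in orange and red for A/J and in pale and dark blue for C3H, and lines join the means of 2 arrays. Oas2 in A/J after NNK was 8.46 to 8.54 at week 3, within the untreated A/J range, and 9.31 to 9.59 at week 12, above it.

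The count of 10 rested in part on single arrays. It ran from 5 to 13 when each array was left out in turn, where the lone array left in a group is assumed to vary like the others. It was 5 without array 1 of NNK-treated A/J at week 6 and also 5 without array 1 at week 12, and 5 without both. It was 6 without array 1 of untreated A/J at week 6 and 6 without array 1 of NNK-treated A/J at week 9. Oas2, Irf7, Lgals3bp, Usp18 and Zbp1 passed in all 36 of these fits, with highest adjusted p-values of 0.000296, 0.0108, 0.00284, 0.00953 and 0.00867. Oas3 was lost in 29 of the 36, Cxcl9 in 10, Cmpk2 and Oasl2 in 7 each and Rtp4 in 2. Without the arrays of week 6, where the untreated A/J lungs carried skin genes, 5 members passed and Irf7 did not (0.41, adjusted p = 0.0518).

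In C3H lungs 0 of the 31 members passed (limma), where 0.0803% of all genes did, 0.0401% in each direction. At an unadjusted p under 0.05 there were 3 of the 31 members and 936 of all 14953 genes. The changes of 21 members were above 0 and of 10 below, with a median of 0.02 against -0.01 over all genes. The smallest p-values were those of Oasl1 (0.17 ± 0.06, adjusted p = 0.623), Oasl2 (0.15 ± 0.06, adjusted p = 0.683) and Bst2 (0.10 ± 0.04, adjusted p = 0.719). Oas2 read 9.79, 10.05 and 10.44 with NNK and 9.76, 10.03 and 10.41 without, a change of 0.06 with a 95% interval from -0.08 to 0.21. Irf7 changed by 0.14 ± 0.09, Zbp1 by 0.11 ± 0.08, Usp18 by 0.07 ± 0.05, Lgals3bp by 0.04 ± 0.05 and Cxcl9 by 0.04 ± 0.13, none past the threshold.

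The difference between the strains' NNK changes was tested itself. Oas2 was the 1 member past the threshold, with a change larger in A/J by 0.44 ± 0.10 (adjusted p = 0.0302), where 1.13% of all genes passed in either direction and 1% were larger in A/J. The estimate was above 0 for 29 of 31 members, with a median of 0.12 against 0.02 over all genes. Lgals3bp came next at 0.27 ± 0.07 (adjusted p = 0.0709, 95% interval 0.12 to 0.42), then Zbp1 at 0.28 ± 0.11 (adjusted p = 0.175), Usp18 at 0.18 ± 0.07 (adjusted p = 0.186) and Irf7 at 0.32 ± 0.13 (adjusted p = 0.193). Oas2 lost the call in 11 of 36 fits that left out 1 array, with adjusted p-values from 0.0048 to 0.0646. Those 11 left out array 1 of untreated A/J at week 3, array 2 of NNK-treated A/J at week 9 or array 1 at week 12, array 1 of untreated C3H at week 3, 6, 9 or 12, either array of NNK-treated C3H at week 6, array 2 at week 9 or array 1 at week 12. It lost the call too without the arrays of week 6 (0.46, adjusted p = 0.132), while without the 2 week 3 arrays of highest Saa3 (array 1 of NNK-treated C3H, array 2 of untreated A/J) the count of members was 3. The count was also 3 without array 2 of untreated A/J at week 3 and 2 without array 2 of NNK-treated A/J at week 12.

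**Figure D2:**
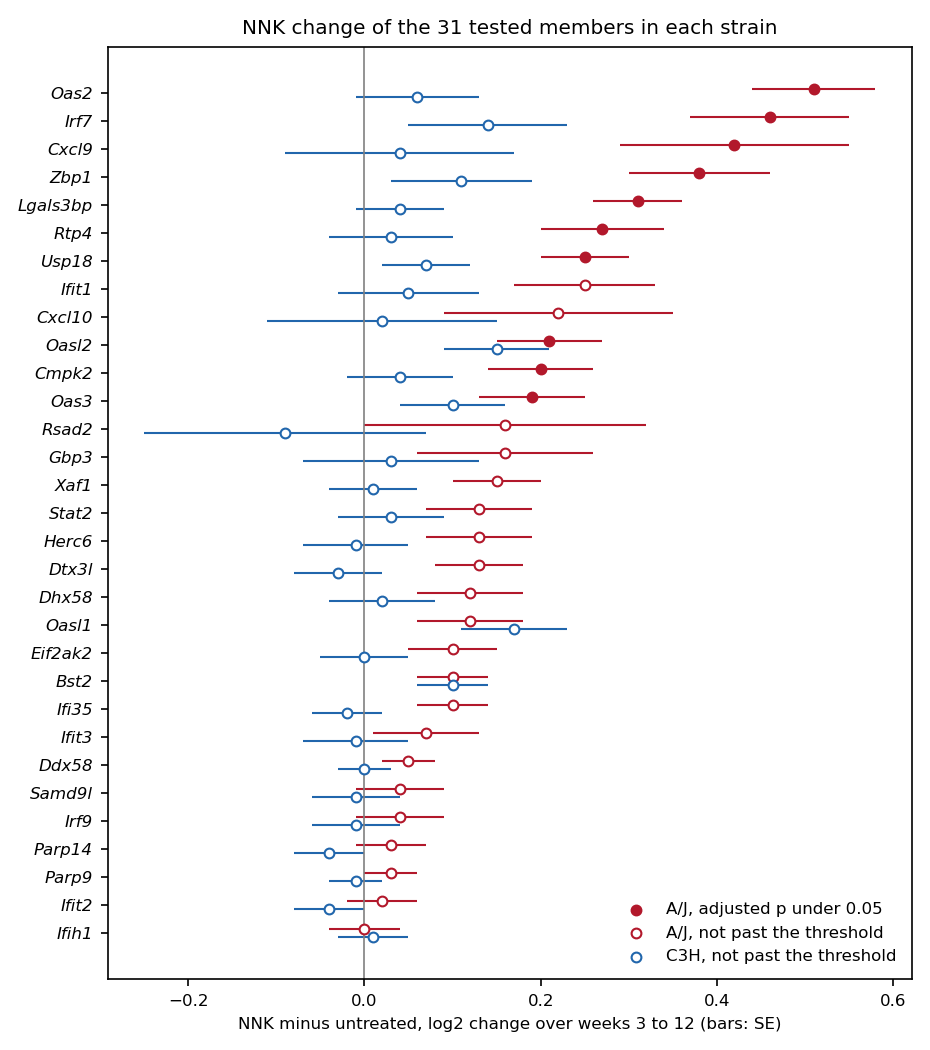
NNK minus untreated log2 change (horizontal axis) of the 31 tested members averaged over weeks 3 to 12, red for A/J and blue for C3H. Bars are standard errors and filled points passed at an adjusted p under 0.05. All 10 filled points are in A/J, and the A/J estimates reach 0.51 where the C3H estimates reach 0.17.

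The strains were also compared within NNK-treated lungs of weeks 3 to 12. There 14 members were lower in A/J and 6 higher, where 29.8% of all genes were lower and 23.5% higher, 53.3% in all. Over the same weeks without NNK 20 were lower and 4 higher, where 32.2% and 20.4% of all genes were. Oas2 stood at -1.06 ± 0.07 with NNK, Lgals3bp at -0.51 ± 0.05 and Irf7 at -0.30 ± 0.09. In 5 members (Oas2, Irf9, Ifit3, Ifih1, Lgals3bp) every NNK-treated A/J array was below every NNK-treated C3H array, as in 8.61% of all genes. Cxcl9 was higher in A/J among NNK-treated lungs by 0.60 ± 0.13 (adjusted p = 0.000395). Whether these strain differences differ between NNK-treated and untreated lungs is the test of the paragraph before, which Oas2 passed.

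**Figure D3:**
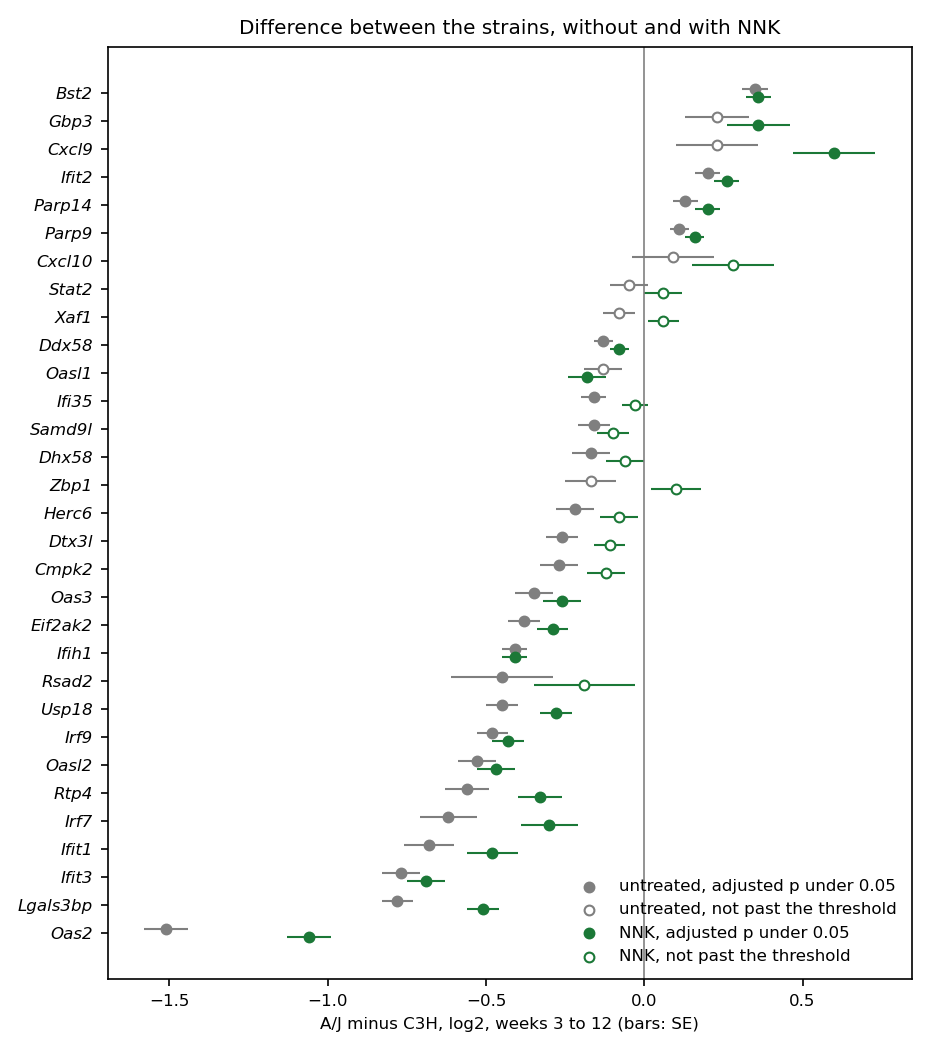
A/J minus C3H difference (horizontal axis, log2) of the 31 members over weeks 3 to 12, grey for untreated and green for NNK-treated lungs. Bars are standard errors and filled points passed at an adjusted p under 0.05. Most points lie left of 0, and Oas2 is farthest left, at -1.51 untreated and -1.06 with NNK.

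Split by week, the members' median NNK change in A/J was 0.00 at week 3, 0.11 at week 6, 0.18 at week 9 and 0.25 at week 12, against 0.02, 0.03, 0.03 and -0.01 over all genes. Fits that lacked 1 array gave a members' median of 0.00 to 0.01 at week 3 and 0.03 to 0.18 at week 6. It was 0.11 to 0.23 at week 9 and 0.14 to 0.38 at week 12, so the ranges of weeks 6 to 12 overlapped. At week 3 0 members passed (0.354% of all genes) and 0 had an unadjusted p under 0.05, against 1909 of all genes. The largest estimates there were Rsad2 at -0.42 ± 0.32 and Irf7 at 0.28 ± 0.18.

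At week 6, 4 members rose, where 4.36% of all genes rose and 2.91% fell, 7.27% in all. Rsad2 read 10.65 and 8.96 with NNK against 8.56 and 8.24 without, a rise of 1.40 ± 0.32 (adjusted p = 0.0142). Both NNK arrays were above both controls, but array 1 was 1.69 above array 2. Irf7 rose by 0.62 ± 0.18 (adjusted p = 0.0434), Oas2 by 0.51 ± 0.14 (adjusted p = 0.0279) and Eif2ak2 by 0.30 ± 0.09 (9.14 and 9.05 against 8.80 and 8.79; adjusted p = 0.0457). Dhx58 stood at 0.38 ± 0.12 (adjusted p = 0.0562) and Ifit1 at 0.37 ± 0.17 (adjusted p = 0.168). Without array 1 of NNK-treated A/J none of the 4 passed, with Rsad2 at 0.56 (adjusted p = 0.232), Irf7 at 0.51 (adjusted p = 0.218), Oas2 at 0.27 (adjusted p = 0.326) and Eif2ak2 at 0.25 (adjusted p = 0.216). The count was also 0 without either untreated array of that week, and 2 without either untreated C3H array of week 12. When single arrays were dropped in turn, the call was lost for Eif2ak2 in 16 of 36 cases and for Irf7 in 8, some of them C3H arrays, and for Oas2 and Rsad2 in 3 each. At this week 6 of 9 neutrophil markers rose (median change of the 9, 1.36), 6 of 6 proliferation markers and 2 of 7 monocyte and recruited macrophage markers (median 0.48). The controls of this week are the 2 arrays with skin genes, and 5 of 6 skin markers fell (median -4.38). The part of these markers in the member changes was not tested.

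At week 9, Oas2 (0.64 ± 0.14, adjusted p = 0.0226) and Zbp1 (0.60 ± 0.15, adjusted p = 0.043) rose, 2 of 31 members where 1.17% of all genes rose and 1.54% changed in either direction. Zbp1 read 9.11 and 9.03 with NNK against 8.49 and 8.44 without. Lgals3bp stood at 0.37 ± 0.10 (adjusted p = 0.0725) and Cxcl10 at 0.40 ± 0.25, while Rsad2 was at -0.45 ± 0.32. Both calls were lost without array 2 of the untreated lungs or either NNK array of that week, and Zbp1 was lost in 15 of 36 fits in all, the other 12 being those without 1 untreated C3H array of weeks 3 to 12 or 1 NNK-treated C3H array of week 6 or 9. The count was 4 without array 1 of the untreated A/J lungs of week 9.

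At week 12 all 31 members had a change above 0, where 46.4% of all genes did. An unadjusted p under 0.05 was reached by 17 members and by 1091 of all genes. Cxcl9 rose by 1.49 ± 0.26 (adjusted p = 0.018) and Oas2 by 0.93 ± 0.14 (adjusted p = 0.00509), 2 of the 11 genes called (0.0736% of all). Cxcl9 read 9.54 and 9.73 against 7.93 and 8.35, a 2.82-fold rise, and Oas2 read 9.59 and 9.31 against 8.47 and 8.57, a 1.91-fold rise. Zbp1 stood at 0.69 ± 0.15 (adjusted p = 0.0884), Irf7 at 0.67 ± 0.18 (adjusted p = 0.225) and Gbp3 at 0.65 ± 0.20 (adjusted p = 0.299). Without array 1 of the NNK-treated lungs neither passed, with Oas2 at 0.80 (adjusted p = 0.2) and Cxcl9 at 1.59 (adjusted p = 0.2). Leaving out array 2 of the untreated lungs lost both as well, and leaving out either of the other arrays of that week lost Cxcl9, with counts of 1 without array 1 of the untreated lungs and 4 without array 2 of the NNK-treated lungs. A linear contrast of the NNK change over weeks 3 to 12, chosen after the data had been seen, called 0 members in A/J (0.0334% of all genes, 0.0201% higher) with 30 of 31 above 0 and a median of 0.19 over 9 weeks. By unadjusted p under 0.05 it had 8 members and 805 of all genes, led by Oas2 at 0.93 ± 0.18 (adjusted p = 0.0917).

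In C3H the weekly medians were -0.14, 0.06, 0.07 and 0.09. At week 3, 24 of 31 members were below 0, against 59.0% of all genes, and Ifit2 fell by 0.40 ± 0.08 (8.74 and 8.96 with NNK, 9.30 and 9.20 without; limma adjusted p = 0.0469). It was 1 member lower where 0.0669% of all genes were, with 0.0268% higher and 0.0936% in all. This call was lost in 29 of 36 fits that left out 1 array, with changes from -0.51 to -0.29 over the 36. The other weeks called 0 members (0.0134%, 0% and 0% of all genes at weeks 6, 9 and 12), with 0, 1 and 0 at an unadjusted p under 0.05 against 611, 281 and 182 of all genes. Both C3H arrays at week 3 after NNK were those with high Saa3, and the part of that state in the values of this week was not tested.

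**Figure D4:**
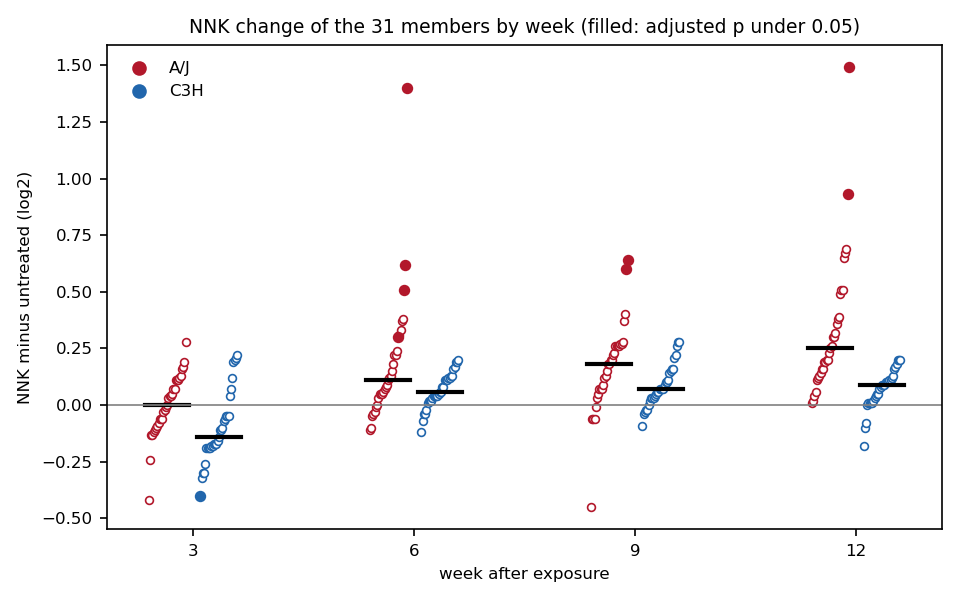
NNK minus untreated log2 change (vertical axis) of each of the 31 members at each week after exposure (horizontal axis), red for A/J and blue for C3H. Each point is 1 member, filled points passed at an adjusted p under 0.05 and black bars are medians. The A/J median goes from 0.00 at week 3 to 0.25 at week 12, and the C3H median from -0.14 to 0.09. In fits that lacked 1 array the week 12 median was 0.14 to 0.38 in A/J and 0.04 to 0.11 in C3H.

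On several arrays most members were high or low at once. In A/J lungs after NNK, array 1 was above array 2 for 27 of 31 members at week 6, 27 at week 9 and 26 at week 12, where 55.2%, 52.9% and 51.4% of all genes were. The same held in untreated C3H lungs, with 28 at week 6 and 29 at week 9, where 48.6% and 54.8% of all genes were. In C3H lungs 12 weeks after NNK array 1 was above array 2 for 8 members, where 43.5% of all genes were. The mean over the 31 members was 9.81 and 9.60 at week 6, 9.87 and 9.75 at week 9, and 9.97 and 9.75 at week 12 in A/J with NNK. Untreated A/J arrays of all weeks lay between 9.49 and 9.65, and C3H arrays of both treatments between 9.69 and 10.01.

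The members that stood out differed between the 2 high A/J arrays. On array 1 of week 6 the gap to array 2 was 1.69 for Rsad2, 0.56 for Cxcl10 and 0.48 for Oas2. On array 1 of week 12 it was 0.99 for Gbp3 (11.13 against 10.14), 0.71 for Zbp1 (9.68 against 8.96) and 0.55 for Stat2 (10.77 against 10.22). Rsad2 on that array was 8.84, within its untreated range of 8.19 to 9.44. Among genes outside the list, Gbp5 read 10.73 on array 1 of week 12 and 8.88 to 9.52 on the other NNK arrays of weeks 6 to 12, and Gbp4 read 12.65 against 11.26 to 11.80. On array 1 of week 6 the neutrophil granule gene Ngp read 10.18 against 7.25 on array 2, and Mki67, a proliferation marker, 10.50 against 9.05. Their part in the member levels was not tested.

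**Figure D5:**
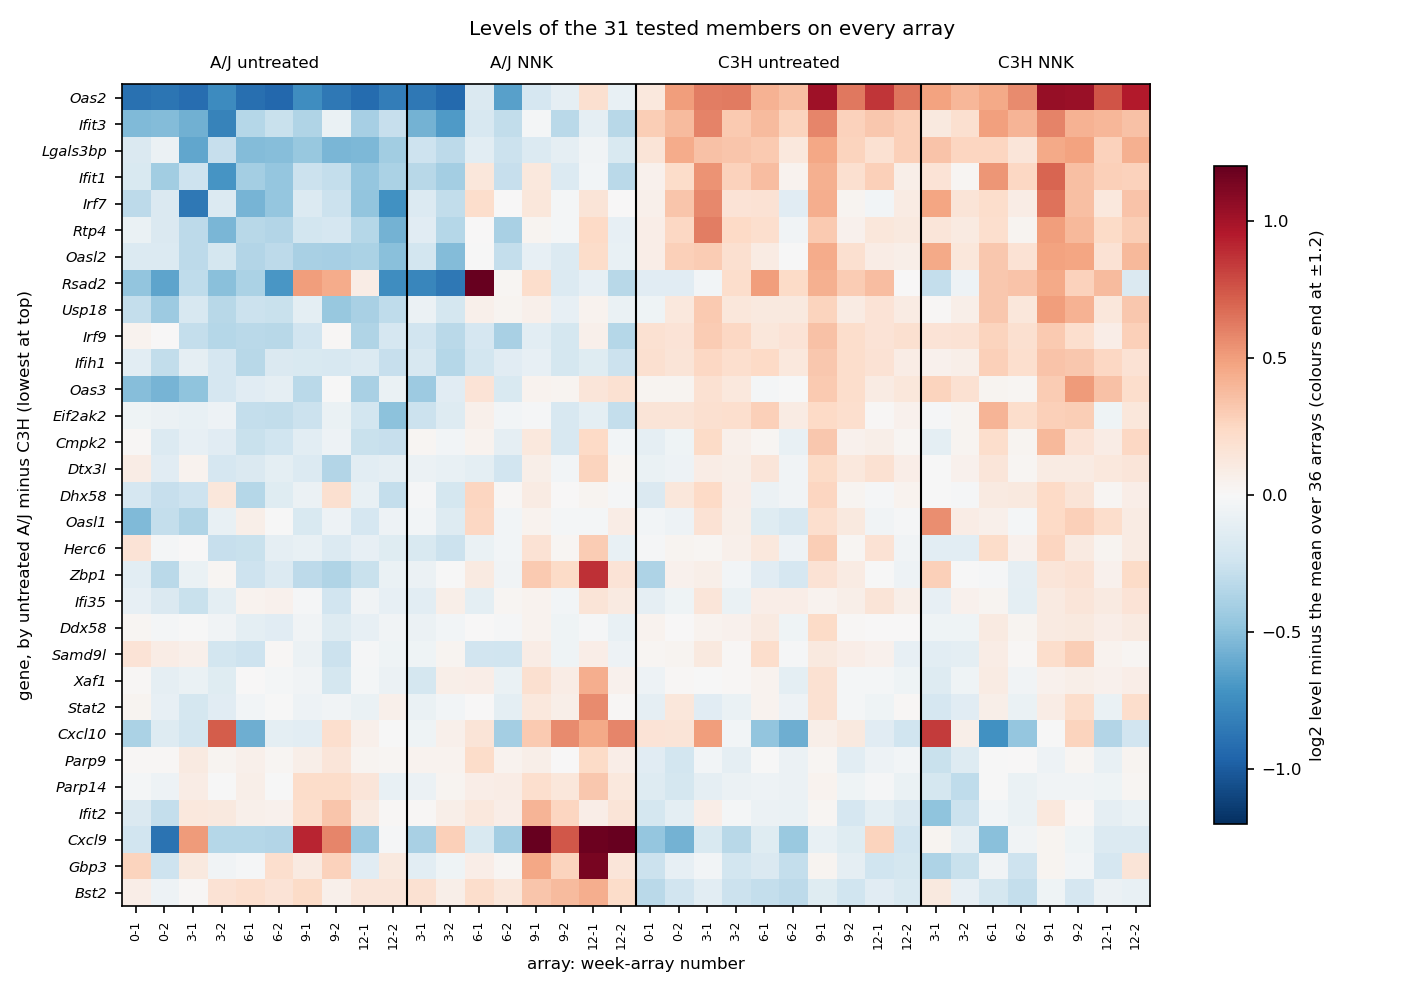
Log2 level minus the gene's mean over 36 arrays for the 31 tested members (vertical axis, ordered by the untreated strain difference) on every array (horizontal axis, week and array number), with colours ending at 1.2 in either direction. Blue is below and red above the mean. Untreated A/J columns are mostly blue for the upper genes, Rsad2 is red on array 1 of week 6 and Gbp3 and Zbp1 on array 1 of week 12 of the NNK-treated A/J lungs.

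Spread within groups varied between members. The residual SD of Rsad2 was 0.359, at the 99.2nd percentile of all tested genes, and those of Cxcl9, Cxcl10 and Gbp3 were 0.283, 0.276 and 0.219, while Ddx58 had 0.056. The median over members was 0.129 in A/J and 0.108 in C3H, where all genes had 0.106 and 0.08.

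Without NNK 5 members changed with the weeks in A/J (limma). From week 0 to 12, Oas3 rose by 0.31 ± 0.11 (adjusted p = 0.0419), Ifit2 by 0.29 ± 0.07 (adjusted p = 0.00663) and Ifit3 by 0.34 ± 0.11 (adjusted p = 0.0243), and Eif2ak2 fell by 0.28 ± 0.08 (adjusted p = 0.0189) and Lgals3bp by 0.30 ± 0.09 (adjusted p = 0.026). That was 3 higher and 2 lower of 31, where 17.5% of all genes were higher and 5.27% lower, 22.8% in all. Oas3 read 7.29 and 7.24 at week 0 and 7.41 and 7.72 at week 12, and Lgals3bp 11.70 and 11.80 at week 0 and 11.34 and 11.46 at week 12. Oas2 had no such trend in A/J, with 8.50 and 8.52 at week 0 and 8.47 and 8.57 at week 12. Without normalization between arrays 0 rose and the same 2 fell, and the share of rises among all called genes was 40.6% where it had been 76.9%. Oas3 then stood at 0.11 (adjusted p = 0.481), Ifit2 at 0.20 (adjusted p = 0.0787) and Ifit3 at 0.29 (adjusted p = 0.0758). All 5 were lost without array 2 of untreated A/J at week 0, the array with Lor at 13.65. The count was 3 without array 1 of week 0, 2 without array 2 of week 9 and 3 without array 2 of week 12. In C3H 0 members passed (0.863% of all genes), with 5 at an unadjusted p under 0.05 against 1813 of all genes, led by Oas2 at 0.43 ± 0.12 (adjusted p = 0.0971).

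The rest of the pathway was read from lists. Of 15 interferon ligands and receptors 13 were measured and 7 tested, and in A/J 0 changed with NNK, with estimates from -0.07 for Ifngr1 to 0.05 for Ifngr2. Ifnb1 and Ifng lay under the filter, with levels of 6.64 to 6.97 and 7.05 to 7.16 on the NNK-treated A/J arrays of weeks 3 to 9, and 7.11 and 7.01, and 7.41 and 7.40, on those of week 12. Neither gene was tested and no untreated levels are set beside these, so no change with NNK is read from them. Of 19 sensors, adaptors and signalling genes 0 changed, with Ticam1, the adaptor of TLR3, at 0.13 ± 0.04 (adjusted p = 0.0528). Of 41 other interferon-induced genes tested, 4 rose and 0 fell: Ly6e (0.31 ± 0.04), Uba7, the activating enzyme for ISG15 (0.19 ± 0.04), Ifitm1 (0.21 ± 0.06) and Irgm1 (0.29 ± 0.08). Over all tested genes 7.44% rose and 2.6% fell with NNK in A/J. The NNK change was larger in A/J than in C3H for Ifitm1 by 0.35 ± 0.08 (adjusted p = 0.039) and Ly6e by 0.26 ± 0.06 (adjusted p = 0.0399). It was larger in A/J for 1% of all tested genes. In C3H 0 genes of these 3 lists passed, where 0.0803% of all genes did.

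Between untreated strains, 10 of the 19 sensors and signalling genes were lower in A/J and 1 higher, led by Ticam1 (-0.71 ± 0.04), Tlr7 (-0.67 ± 0.04), which senses single-stranded RNA, and Usp25 (-0.23 ± 0.02). Of the ligands and receptors Il10rb alone was lower (-0.13 ± 0.03), and the type I receptor chains Ifnar1 and Ifnar2 stood at 0.01 ± 0.03 and 0.00 ± 0.03. Of the 41 other induced genes 22 were lower and 10 higher, among them Lgals9 at -0.61 ± 0.05 and Ifi203 and Gbp4, higher by 1.02 ± 0.08 and 1.06 ± 0.10. These shares stand beside 36.3% lower and 19.8% higher over all genes.

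Markers of cell types moved with these comparisons in part. Their counts stand beside 7.44% higher and 2.6% lower over all tested genes with NNK in A/J. Between untreated strains 36.3% of all tested genes were lower and 19.8% higher in A/J. In A/J with NNK, 2 of 9 neutrophil markers rose (Mmp8, Retnlg), 3 of 6 proliferation markers (Rrm2, Cdk1, Top2a), 1 of 6 alveolar macrophage markers (Chil3), 2 of 6 type 2 epithelial markers (Lamp3 by 0.22, Abca3 by 0.12), 2 of 5 airway markers (Foxj1 by 0.32, Dnah5 by 0.20) and 0 of 9 T and NK cell, 0 of 7 monocyte and 0 of 5 plasmacytoid dendritic cell markers. The summed intensity of the 5 plasmacytoid markers, cells that make much type I interferon, was 5290 to 5805 with NNK and 5423 to 6069 without in A/J, and 6062 to 6864 and 6395 to 7127 in C3H. That of the 11 T and NK cell markers was 3692 to 5197 and 3009 to 6280 in A/J, and 4352 to 5853 and 4180 to 5590 in C3H. Of the 5 plasmacytoid markers 3, and of the 9 T and NK cell markers 5, were lower in untreated A/J than in untreated C3H, where 1 T cell marker, Cd8a, was higher by 0.43 ± 0.08. Bst2, also a plasmacytoid marker, was left out of these 5 because it is a member. It was higher on every untreated A/J array (median 9.74 against 9.37 in C3H). Of 6 alveolar macrophage markers 4 were lower and 2 higher, and of 6 type 2 epithelial markers 3 were lower and 1 higher. Other lists ran mostly higher in A/J: 4 of 5 endothelial, 3 of 7 monocyte, 3 of 5 airway and 4 of 6 skin markers were higher and 0 lower, and of 6 B and plasma cell markers 3 were higher and 1 lower. In A/J with NNK 2 of 5 endothelial markers fell (Tek and Tie1, -0.16 ± 0.04 each). Over the weeks 5 of 6 skin markers fell too, with calls at week 6 alone and medians of -0.14, -4.38, 0.04 and 0.03 at weeks 3, 6, 9 and 12. Type 2 alveolar epithelial markers were high on every array, with sums of 55263 to 65129 over 6 genes, so the labelled tissue's defining markers were present. The part of these cells in the member changes was not tested.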

How the data were processed

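Per the submitters' processing notes, the authors computed the deposited intensity values, 1 per probe set and array, with PLIER in Affymetrix Expression Console; versions, settings and genome build are not given in the sources used here. Of 35556 probe sets, 21789 carried 1 gene symbol, 1621 carried several and 12146 were not named in the probe table. Each gene was taken from its probe set with the highest mean, intensities were put on the log2(value + 16) scale and quantile-normalized, and genes under the 25th percentile of mean level were left out of the tests. limma 3.58.1 in R 4.3.3 was fitted to all 36 arrays with a mean for each of 18 groups (18 residual degrees of freedom), and p-values were adjusted by Benjamini-Hochberg over the 14953 genes of each comparison. Adjusted p-values here are all limma's, errors after ± are standard errors, and the threshold was 0.05. The fit was tested on simulated data. Promoter sequences and gene order came from RefSeq.

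The members, pathway lists and marker lists were chosen with earlier results of these data known. Members past the threshold over the weeks were described with their arrays, at most 12 per comparison by smallest p, and at each week the 5 largest changes were eligible. Cxcl9, Cxcl10, Rsad2, Irf7, Isg15 and Mx1 were kept by role, and up to 4 genes per comparison were named from each other pathway list. Gbp5, Ngp, Mki67 and the receptor chains were picked once their values were known. The linear NNK contrast and the strain comparisons over weeks 3 to 12, in NNK-treated and in untreated lungs, were added after seeing the data. So were the fits without arrays that stood apart, other than that without week 6. Alternatives were no normalization, other filters, array weights, a replicate block, fits within a strain, the mean of a gene's probe sets and leaving out arrays.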

Additional observations from a re-analysis of the deposited data

Results flagged for a closer look

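Within 128 groups of arrays examined for a value far from the rest, 5 were found, no more than the about 1 in 20 that chance gives. Each group pooled all weeks of a strain and treatment for 1 gene, so differences between weeks enter as well. Of these, 3 were on array 1 of NNK-treated A/J lungs at week 12: Stat2 at 10.77 (next highest 10.33), Zbp1 at 9.68 (next 9.11) and Gbp3 at 11.13 (next 10.46). Rsad2 at 10.65 on array 1 of NNK-treated A/J lungs at week 6 stood above the next highest, 9.15. Cxcl9 at 7.86 on array 1 of NNK-treated C3H lungs at week 6 stood below the next lowest, 8.20.

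The NNK change of Oas2 differed between the strains by the test of the difference itself, larger in A/J by 0.44 on the log2 scale (limma, adjusted p = 0.0302).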

How the results depend on the processing

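No direction turned in any alternative, and of the members' single results outside the fits that left out 1 array, 1039 kept their call and 105 lost it. This tally includes the strain comparisons, where more members passed than with NNK, so it does not measure how stable the NNK calls are. Taking the mean of a gene's probe sets could not change the level of a tested member, as each has 1 set. Array weights came out equal for both arrays of each group, for example 0.67 each for NNK-treated A/J at week 6. That setting therefore weighted groups and could not lower a single array that stood apart. The number of members past the threshold moved by over 1.5 times as follows. NNK in A/J (10): 5 with array weights, with each strain's own arrays, without week 6, or without both A/J NNK arrays that stood apart, and 6 when week 6 was left out together with the week 0 array of high Lor. Difference between strains (1): 0 without week 6, without week 6 and that week 0 array, or without both A/J NNK arrays, and 3 without the 2 week 3 arrays of highest Saa3. Untreated A/J trend (5): 2 without normalization, 1 with array weights or own arrays, and 0 without week 6 and the week 0 array. Untreated C3H trend (0): 1 with array weights or without both A/J NNK arrays. A/J at week 6 (4): 2 with a filter at the 50th percentile, 1 with array weights, and 0 with own arrays or without array 1. A/J at week 9 (2): 1 without a filter or without week 6, and 0 with array weights or own arrays. A/J at week 12 (2): 1 with the 50th percentile filter, own arrays or without array 1 of week 6 and of week 12. C3H at week 3 (1): 0 without normalization, without a filter, with array weights, own arrays, the mean of probe sets, and under each setting that left out several arrays. With the array number as a replicate block, the counts were 12 for NNK in A/J, 5 for A/J at week 6 and 0 for C3H at week 3, and no other count moved by over 1.5 times. Same-numbered arrays were treated as sharing only a number: over 153 pairs of groups their deviations correlated from -0.38 to 0.424 (median 0.0173), with 30.7% of pairs over 0.1. The members' median of array 1 minus array 2 was above 0 in 14 of 18 groups, below in 2 and at 0 in 2.

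Leaving out each array in turn gave 5 to 13 for NNK in A/J, 0 to 0 in C3H, 0 to 3 for the difference, 24 to 27 for untreated strains, 0 to 6 and 0 to 1 for the A/J and C3H trends, 0 to 0, 0 to 6, 0 to 4 and 0 to 4 for A/J at weeks 3, 6, 9 and 12, and 0 to 2 for C3H at week 3 and 0 at its later weeks. It gave 0 to 3 and 0 to 1 for the linear NNK contrasts and 19 to 23 for NNK-treated strains. Without normalization the share of rises among all genes called went from 60.0% to 39.6% for A/J at week 6, from 100% to 88.2% at week 12, from 28.6% to 42.9% for C3H at week 3 and from 100% to 66.7% at week 6. Arrays give no read depth, and 2 per group limit the precision.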
